A study of Mus musculus with 12 samples.

Results

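The 7 mouse genes described here encode pumps of the ATP-binding cassette (ABC) family that carry drugs out of cells. They are the P-glycoprotein genes Abcb1a and Abcb1b, the multidrug resistance-associated protein (MRP) genes Abcc1, Abcc3, Abcc4 and Abcc5, and Abcg2, the gene of the breast cancer resistance protein. They were taken by gene symbol from a table of 40406 genes, and all 7 were among the 15538 genes tested. The rule uses no measured value, but the pumps were chosen with earlier results of these data known. The RNA came from 4T1 cells, a triple-negative mammary carcinoma line of BALB/c mice, labelled as integrin β3 knockout or wild type. Each genotype received 10 nM docetaxel, a taxane that stabilises microtubules, or its solvent DMSO for 24 h, and was harvested after 48 h without drug. The 4 groups are therefore knockout-labelled cells after docetaxel, knockout-labelled cells after DMSO, wild-type cells after docetaxel and wild-type cells after DMSO, with n = 3 libraries in each. The labels call them biological triplicates of cultures. The sources used here do not give how the knockout was made, nor whether the line is 1 clone.

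ABC pumps bind ATP at a pair of cytosolic domains and use its hydrolysis to move substrates through the membrane. P-glycoprotein takes hydrophobic compounds such as taxanes, vinca alkaloids and anthracyclines from the membrane and the cytosol, and mice have a pair of genes for it where humans have a single one. MRPs carry organic anions, among them conjugates of glutathione, glucuronate and sulfate. The Abcg2 protein works as a dimer of half-transporters and exports substrates such as mitoxantrone, topotecan and urate. In drug-treated tumour cells these pumps are known for lowering the amount of drug inside the cell, and their transcripts can rise in cells selected under a drug.

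Between 28.7 and 40.8 M counts per library were assigned to genes, and 19840 to 22648 genes were detected. Levels are given as CPM, counts per 1 M of a library's total after that total was multiplied by the library's TMM scaling factor from edgeR. Itgb3, the gene of integrin β3, averaged 64.7 ± 2.14 CPM in knockout-labelled cells and 65.9 ± 5.67 CPM in wild-type cells under DMSO (SD, n = 3 each), at a difference on the log2 scale of -0.03 ± 0.08 (SE; edgeR adjusted p = 0.874). It was lower in knockout-labelled cells after docetaxel, with a difference of -0.41 ± 0.08 (edgeR adjusted p = 0.00765). The label of a knockout was therefore not matched by the transcript under DMSO, and every genotype direction below rests on the labels. Wild-type DMSO library 1 is called a knockout in its description but wild type in its title and genotype, and it was kept as wild type. The noncoding feature Gm23935 took 1.51% of the counts in knockout-labelled docetaxel library 3 and 3.98% in wild-type DMSO library 2, the most within their groups (wild-type DMSO library 1 held 1.62%). Called results of the pumps are also given without that pair of libraries. Of 7 epithelial marker genes, Krt8, Krt18, Epcam and others summed to 2040 to 2610 CPM in libraries of knockout-labelled cells after docetaxel, 2710 to 2860 CPM in those after DMSO, and in the wild type 2020 to 2460 CPM after docetaxel and 2290 to 2890 CPM after DMSO. The basal keratin gene Krt5 was at or near 0 throughout, and the tight-junction gene Cldn7 was at 0.0294 to 0.189 CPM in the knockout-labelled libraries, against 7.11 to 9.32 CPM in wild-type libraries. In bulk RNA, fewer cells that express a gene and less RNA per cell cannot be told apart.

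Abcb1a and Abcb1b lie next to each other on the plus strand of chromosome 5 of GRCm38, at 8660077-8748575 and 8798147-8866315. Their coding sequences in GENCODE M21 have 3831 bases each and were identical at 88.2% of the 3819 positions aligned without a gap. The longest identical run had 338 bases, and 5.81% of the 150-base windows of Abcb1a, the read length, occurred unbroken in Abcb1b. A read from such a window cannot by itself be assigned to 1 of the genes, though the other read of its pair may lie outside the window. The sources used here do not give the authors' rule for such reads. The 60-base stretches below are the least alike of the aligned coding sequences, with 25 differing bases in capitals, and show where reads separate the genes. They span coding bases 1913 to 1972 of Abcb1a and 1922 to 1981 of Abcb1b.
Abcb1a: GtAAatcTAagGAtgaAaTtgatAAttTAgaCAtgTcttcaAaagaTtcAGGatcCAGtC
Abcb1b: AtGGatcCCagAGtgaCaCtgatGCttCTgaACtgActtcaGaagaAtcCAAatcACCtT
The next pair shows the opposite case, the end of the longest identical run, with its last 150 bases in capitals and 30 further bases in lower case. These are coding bases 1545 to 1724 of Abcb1a and 1554 to 1733 of Abcb1b.
Abcb1a: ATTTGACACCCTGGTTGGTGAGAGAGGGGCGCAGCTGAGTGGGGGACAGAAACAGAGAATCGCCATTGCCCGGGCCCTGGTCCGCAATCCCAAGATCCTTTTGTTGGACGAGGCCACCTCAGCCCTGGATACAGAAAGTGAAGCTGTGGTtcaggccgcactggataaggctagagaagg
Abcb1b: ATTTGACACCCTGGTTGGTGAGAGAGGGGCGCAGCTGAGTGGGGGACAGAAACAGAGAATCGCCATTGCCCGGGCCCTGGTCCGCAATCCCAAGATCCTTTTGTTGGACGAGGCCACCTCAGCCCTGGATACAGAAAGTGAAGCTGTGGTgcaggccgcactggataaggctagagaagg

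Promoter windows of 300 bases, from 250 before a RefSeq transcript start to 50 bases from it on GRCm38.p6, were found for 5 of the 7 genes, 8 windows in all. Abcc1 and Abcc3 had none in the RefSeq table used. The windows of Abcb1b and Abcg2 are shown because both genes rose after docetaxel in wild-type cells, as given further on. Capitals mark matches, on either strand, to letters known from factor sites. These are TATAAA, the box that sets many transcript starts, CCAAT, bound by NF-Y, GGGCGG, the GC box of Sp1, and TGANTCA, bound by AP-1. The others are TGACNNNGC, the antioxidant response element, the NF-kB motif of 3 G, any 5 bases and 2 C, and ACGTG, the core bound by hypoxia-inducible factors. A match is a description of letters. All windows below are on the plus strand. The Abcb1b window is chr5:8797897-8798196, and the Abcg2 windows are chr6:58584283-58584582, chr6:58596422-58596721 and chr6:58640296-58640595.
Abcb1b: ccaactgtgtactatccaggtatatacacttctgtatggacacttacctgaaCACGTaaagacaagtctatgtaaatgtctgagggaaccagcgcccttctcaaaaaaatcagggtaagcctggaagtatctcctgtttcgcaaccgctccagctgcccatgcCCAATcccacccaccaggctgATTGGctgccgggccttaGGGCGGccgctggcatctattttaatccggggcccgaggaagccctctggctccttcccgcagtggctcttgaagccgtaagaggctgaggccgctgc
Abcg2, start 1: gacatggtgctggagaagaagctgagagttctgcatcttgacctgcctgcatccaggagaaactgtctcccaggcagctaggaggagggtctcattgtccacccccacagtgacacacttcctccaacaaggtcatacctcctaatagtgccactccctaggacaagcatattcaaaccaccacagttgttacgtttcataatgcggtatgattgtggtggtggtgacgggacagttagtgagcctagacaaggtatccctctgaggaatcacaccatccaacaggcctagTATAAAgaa
Abcg2, start 2: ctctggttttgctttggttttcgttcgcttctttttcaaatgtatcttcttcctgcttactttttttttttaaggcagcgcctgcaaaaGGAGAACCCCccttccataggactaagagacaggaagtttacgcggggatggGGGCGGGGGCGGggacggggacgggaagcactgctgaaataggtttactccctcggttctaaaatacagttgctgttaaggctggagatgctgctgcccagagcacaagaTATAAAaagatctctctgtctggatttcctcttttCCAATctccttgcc
Abcg2, start 3: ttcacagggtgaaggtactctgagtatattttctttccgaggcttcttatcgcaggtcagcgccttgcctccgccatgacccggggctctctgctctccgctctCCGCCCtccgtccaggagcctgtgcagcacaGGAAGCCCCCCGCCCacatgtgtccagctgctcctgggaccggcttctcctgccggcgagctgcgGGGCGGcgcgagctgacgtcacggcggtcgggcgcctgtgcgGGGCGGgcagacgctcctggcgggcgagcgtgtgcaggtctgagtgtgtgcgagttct

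In the Abcb1b window the CCAAT letters began at position -87, their reverse ATTGG at -66 and a GC box at -48, counted from the start base at 1. The window had 55% GC and 12 CpG dinucleotides. The Abcg2 windows had 50%, 48% and 67% GC and 3, 10 and 28 CpG, so start 3 lies in the most CpG-rich of the 3. It held 4 GC box matches, start 2 held 2 that adjoin, and start 1 held none. In start 3, the NF-kB match shares 1 base with a GC box match. The TATAAA letters of Abcg2 began at position 42 in start 1 and at 2 in start 2, and CCAAT at 37 in start 2. These matches thus lie after the start base, not before it. Of the 32851 RefSeq windows of this length, 13.6% hold TATAAA, 37.4% CCAAT, 35.7% GGGCGG, 7.81% TGANTCA, 12.4% TGACNNNGC, 50.8% the NF-kB letters and 19.6% ACGTG. The counts are summed over a whole gene and do not say which Abcg2 start was used. The Abcb1a window in the table, at chr5:8566841-8567140, lies far upstream of the gene's start in GENCODE and is not printed.

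Per kilobase of the longest transcript, the order of the levels was nearly the same in all 4 groups, with Abcc1 highest and Abcb1a lowest. Abcc1 averaged 22.5 ± 0.429 CPM per kilobase in knockout-labelled docetaxel cells, 22 ± 1.23 in knockout-labelled DMSO cells, 18.9 ± 1.02 in wild-type docetaxel cells and 22 ± 1.56 in wild-type DMSO cells (SD, n = 3 each). Abcc3 came next, at 10.3 ± 0.689 CPM per kilobase in knockout-labelled docetaxel cells, 14.4 ± 0.963 in knockout-labelled DMSO cells, 11.9 ± 0.876 in wild-type docetaxel cells and 21.4 ± 2.74 in wild-type DMSO cells. The libraries of Abcc1 and Abcc3 overlapped in wild-type DMSO cells and were apart in the other groups. Abcc4 followed, at group means of 7.02 to 8.43 CPM per kilobase. Abcb1b, at 4.38 to 6.07, and Abcc5, at 3.61 to 4.95, came next. Abcb1b was above Abcc5 except in wild-type DMSO cells, and their libraries overlapped in knockout-labelled DMSO cells. Abcg2 had 1.87 ± 0.368 CPM per kilobase in knockout-labelled docetaxel cells, 0.912 ± 0.0911 in knockout-labelled DMSO cells, 0.754 ± 0.0762 in wild-type docetaxel cells and 0.229 ± 0.0664 in wild-type DMSO cells. Abcb1a stood last, at 0.0642 to 0.188. As a share of the 7-gene sum per kilobase, Abcg2 was 3.62% in knockout-labelled docetaxel cells, 1.69% in knockout-labelled DMSO cells, 1.47% in wild-type docetaxel cells and 0.381% in wild-type DMSO cells. Abcc3 was 20% of the sum in knockout-labelled docetaxel cells, 26.7% in knockout-labelled DMSO cells, 23.3% in wild-type docetaxel cells and 35.6% in wild-type DMSO cells, so its share was largest where that of Abcg2 was smallest. The place of Abcc1 depends on the length used: per kilobase of all annotated exons, chosen after seeing the data, Abcc3 exceeded Abcc1 in 3 of the 4 groups, at 12.7 against 9.92 CPM per kilobase in knockout-labelled DMSO cells, for example, and Abcc1 was higher only in knockout-labelled docetaxel cells, at 10.1 against 9.06.

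**Figure D1:**
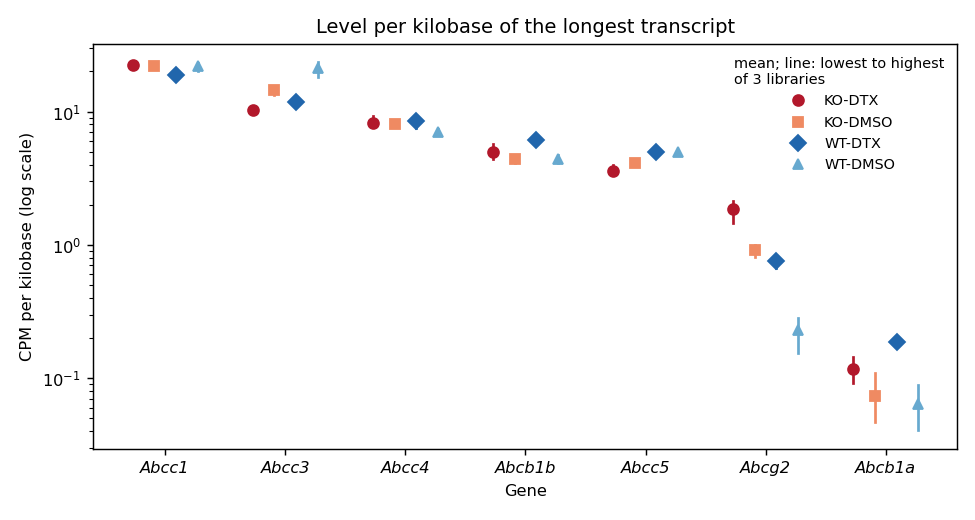
Mean CPM per kilobase of the longest transcript (log axis) of the 7 pump genes in 4 groups of 3 libraries, with lines from the lowest to the highest library; KO is knockout-labelled, WT wild type and DTX docetaxel. Abcc1 is at 18.9 to 22.5 and Abcb1a at 0.0642 to 0.188, and Abcg2 spans the widest range between groups, 0.229 to 1.87.

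After docetaxel, wild-type cells had more Abcg2, Abcb1a and Abcb1b RNA and less Abcc3 RNA than after DMSO, and knockout-labelled cells had more Abcg2 and less Abcc3. Under DMSO, knockout-labelled cells already had more Abcg2 and less Abcc3 than wild-type cells. Of the 7 genes, 2 passed the test for docetaxel in knockout-labelled cells, where 16.1% of all tested genes did (9.09% higher, 7% lower). In wild-type cells 4 of 7 passed, 3 higher and 1 lower, where 28.4% of all genes did (14.5% higher, 13.8% lower). Of the genotype comparisons, 2 of 7 passed under DMSO, against 15.8% of all genes (6.6% higher, 9.2% lower), and 2 of 7 after docetaxel, against 5.89% (2.5% higher, 3.39% lower). With 7 genes these counts are small. The median log2 difference over the 7 was 0.03 for docetaxel in knockout-labelled cells, 0.27 for docetaxel in wild-type cells, 0.01 for genotype under DMSO and -0.21 for genotype after docetaxel, while the medians over all tested genes were 0.00, 0.02, 0.01 and 0.01. The pumps thus did not move as a block.

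**Figure D2:**
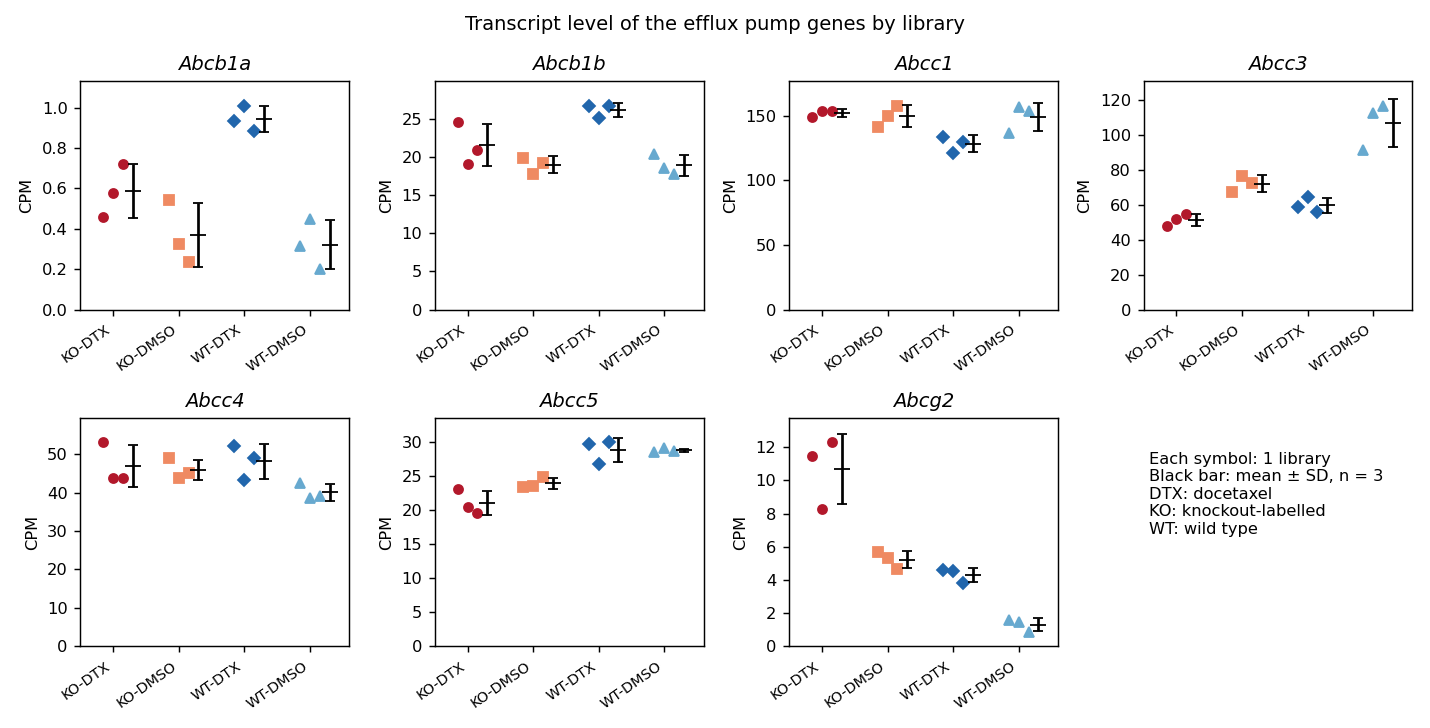
CPM of each pump gene in every library (symbols) with the group mean ± SD (black, n = 3), each panel from 0 on its own scale; KO is knockout-labelled, WT wild type and DTX docetaxel. Abcg2 is highest in knockout-labelled docetaxel cells (10.7 CPM) and lowest in wild-type DMSO cells (1.31 CPM), and Abcc3 runs the other way (51.6 and 107 CPM).

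Abcg2 (ENSMUSG00000029802.13), on the plus strand of chromosome 6 at 58584523-58695676, had the largest log2 difference of the 7 genes in each of the 4 pairwise comparisons of groups, except that without wild-type DMSO library 2 Abcb1a exceeded it in wild-type cells (1.86 against 1.80). Knockout-labelled cells had 11.5, 8.29 and 12.3 CPM after docetaxel, against 5.66, 5.34 and 4.64 CPM after DMSO. In wild-type cells it had 4.60, 4.52 and 3.81 CPM after docetaxel, against 1.60, 1.45 and 0.878 CPM after DMSO. No 2 of the groups overlapped, although the lowest knockout-labelled DMSO library and the highest wild-type docetaxel library nearly met. Docetaxel raised it 2.05-fold in knockout-labelled cells, a log2 change of 1.03 ± 0.19 (SE; edgeR adjusted p = 0.00234), larger in size than the change of all but 6.3% of tested genes. In wild-type cells it rose 3.3-fold, a log2 change of 1.72 ± 0.22 (edgeR adjusted p = 0.000135), with 2.36% of genes changing more.

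Between genotypes, Abcg2 was higher in knockout-labelled cells by 3.98-fold under DMSO, on the log2 scale 1.99 ± 0.22 (edgeR adjusted p = 4.25e-05). After docetaxel it was 2.47-fold higher, at a log2 difference of 1.31 ± 0.19 (edgeR adjusted p = 0.000845). The docetaxel effect was smaller by 0.69 ± 0.29 on the log2 scale in knockout-labelled cells, a log2 interaction of -0.69, and this did not pass over all genes (edgeR adjusted p = 0.421, unadjusted p = 0.0343). The Abcg2 level thus differed with treatment and between knockout-labelled and wild-type cells, and the data do not settle whether the 2 docetaxel effects differ. The genotype cannot be told apart here from other differences between the lines. Without the pair of Gm23935-rich libraries the 4 log2 differences were 0.93 and 1.80 for docetaxel in knockout-labelled and wild-type cells, and 2.07 and 1.20 for genotype under DMSO and after docetaxel (edgeR adjusted p = 0.0152, 0.00106, 0.000415 and 0.00704). Without wild-type DMSO library 1, whose labels conflict, the log2 change in wild-type cells was 1.89 (edgeR adjusted p = 0.000189) and the genotype difference under DMSO 2.16 (edgeR adjusted p = 0.000101).

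Abcc3 (ENSMUSG00000020865.16), whose product MRP3 exports glucuronides and bile acids, lies on the minus strand of chromosome 11 at 94343295-94392997. Its mean was lower in each of the 4 comparisons in which Abcg2 was higher, and the difference passed in 3 of them. Its levels were 48.1, 51.7 and 55 CPM in knockout-labelled docetaxel libraries, against 67.2, 76.8 and 72.5 CPM in knockout-labelled DMSO libraries. In wild-type cells they were 59, 64.5 and 55.8 CPM after docetaxel, against 91.3, 113 and 117 CPM after DMSO. The 3 wild-type DMSO libraries were the highest of all 12, and the docetaxel libraries of both genotypes lay below every DMSO library. The log2 change with docetaxel was -0.48 ± 0.10 in knockout-labelled cells (edgeR adjusted p = 0.0056) and -0.84 ± 0.10 in wild-type cells (edgeR adjusted p = 8.76e-05). Under DMSO it was lower in knockout-labelled cells, at a difference in log2 of -0.57 ± 0.10 (edgeR adjusted p = 0.00195). After docetaxel the nearest libraries of the genotypes lay less than 1 CPM apart, and the log2 difference of -0.21 ± 0.10 did not pass (edgeR adjusted p = 0.292). The interaction was 0.35 ± 0.14 (edgeR adjusted p = 0.397, unadjusted p = 0.0274). Without the pair of Gm23935-rich libraries the log2 differences were -0.53 for docetaxel in knockout-labelled cells, -0.80 for docetaxel in wild-type cells and -0.53 for genotype under DMSO (edgeR adjusted p = 0.0126, 0.000864 and 0.0131). Without wild-type DMSO library 1 they were -0.94 for docetaxel in wild-type cells and -0.67 for genotype under DMSO (edgeR adjusted p = 2.48e-05 and 0.000314).

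**Figure D3:**
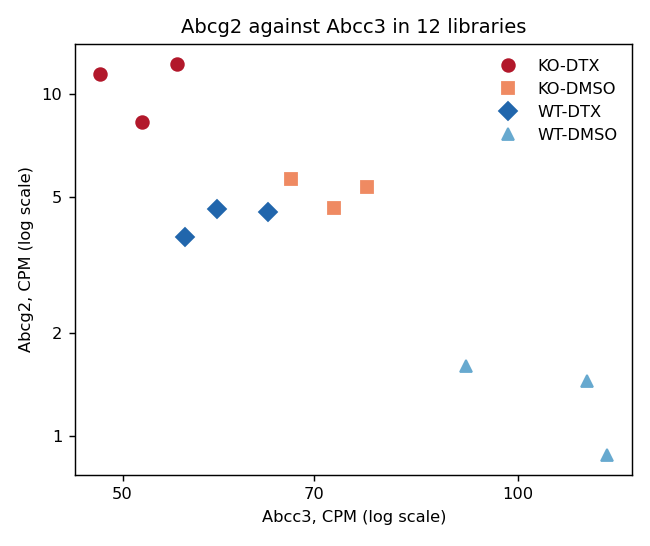
Abcg2 against Abcc3 CPM in the 12 libraries, both axes logarithmic; KO is knockout-labelled, WT wild type and DTX docetaxel. Wild-type DMSO libraries sit at the lower right (0.878 to 1.60 CPM of Abcg2, 91.3 to 117 CPM of Abcc3) and knockout-labelled docetaxel libraries at the upper left (8.29 to 12.3 and 48.1 to 55 CPM).

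Transcript GC content, which can bias counts between libraries, is lowest for Abcg2 among the 7 (39.2%) and highest for Abcc3 (54.2%). After a correction of each library for GC content, the log2 changes of Abcg2 with docetaxel were 0.90 in knockout-labelled and 1.73 in wild-type cells, and the genotype differences 2.11 under DMSO and 1.27 after docetaxel. Those of Abcc3 were -0.42, -0.83 and -0.60 for docetaxel in knockout-labelled cells, docetaxel in wild-type cells and genotype under DMSO. Each of these 7 differences passed the test. Among markers of other cells, the fibroblast receptor gene Pdgfra moved with the groups in the reverse of the order of Abcg2, at 11 to 13.8 CPM in knockout-labelled docetaxel libraries, 13.5 to 16.5 in knockout-labelled DMSO libraries, 18.9 to 19.9 in wild-type docetaxel libraries and 26.9 to 29.7 in wild-type DMSO libraries. The 5 fibroblast markers summed to 11 to 13.9 CPM in knockout-labelled docetaxel libraries, 13.6 to 16.6 in knockout-labelled DMSO libraries, 19 to 20.2 in wild-type docetaxel libraries and 27.2 to 29.8 in wild-type DMSO libraries, nearly all of it Pdgfra, with Lum at 0 in every library and Pdgfrb, Dcn and Col1a2 at or below 0.243 CPM. The part of Pdgfra-expressing cells in these results was not tested. The 7 leukocyte markers summed to 23.1 to 32.4 CPM in knockout-labelled docetaxel libraries, 16.9 to 26.8 in knockout-labelled DMSO libraries, 23.4 to 31 in wild-type docetaxel libraries and 19.4 to 37.4 in wild-type DMSO libraries, mostly Cd68, and Ptprc stayed at or below 0.252 CPM. The 5 endothelial markers summed to at most 0.768 CPM.

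The P-glycoprotein genes rose after docetaxel in wild-type cells, and most of their RNA was Abcb1b. Abcb1b (ENSMUSG00000028970.9) had 24.5, 19.1 and 20.9 CPM in knockout-labelled docetaxel libraries, against 19.9, 17.7 and 19.2 CPM in knockout-labelled DMSO libraries. In wild-type cells it had 26.6, 25.1 and 26.7 CPM after docetaxel, against 20.4, 18.5 and 17.7 CPM after DMSO. The wild-type groups were apart, while in knockout-labelled cells the lowest docetaxel library lay within the DMSO range. The log2 change was 0.18 ± 0.10 in knockout-labelled cells (edgeR adjusted p = 0.256) and 0.47 ± 0.10 in wild-type cells (edgeR adjusted p = 0.00455). Between genotypes the log2 difference was 0.01 ± 0.11 under DMSO (edgeR adjusted p = 0.981) and -0.28 ± 0.10 after docetaxel (edgeR adjusted p = 0.147). The second passed with the GC correction (-0.31, edgeR adjusted p = 0.0386) and without knockout-labelled docetaxel library 1 (-0.39, edgeR adjusted p = 0.0479). The interaction was -0.29 ± 0.15 (edgeR adjusted p = 0.48).

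Abcb1a (ENSMUSG00000040584.8) was scarce, at 20, 20 and 23 counts in knockout-labelled docetaxel libraries, against 17, 10 and 8 in knockout-labelled DMSO libraries. In wild-type cells it had 33, 36 and 31 counts after docetaxel, against 9, 13 and 6 after DMSO. Scaled, these are 0.457 to 0.723 against 0.235 to 0.544 CPM in knockout-labelled cells and 0.882 to 1.01 against 0.203 to 0.447 CPM in wild-type cells. The wild-type docetaxel libraries were the highest of all 12, and the knockout-labelled groups overlapped. The log2 change was 0.66 ± 0.40 in knockout-labelled cells (edgeR adjusted p = 0.286) and 1.54 ± 0.39 in wild-type cells (edgeR adjusted p = 0.0102). Summed over the group and divided by library size, the counts had a ratio of 1.57 in knockout-labelled cells (exact 95% interval 1.02 to 2.44) and 2.94 in wild-type cells (1.92 to 4.65). Such intervals cover counting error only. Neither genotype difference passed, at a log2 difference of 0.19 ± 0.43 under DMSO (edgeR adjusted p = 0.817) and -0.69 ± 0.36 after docetaxel (edgeR adjusted p = 0.336), and the interaction was -0.89 ± 0.56 (edgeR adjusted p = 0.567). Of the 12 libraries, 10 exceeded the filter level of 0.306 CPM, and Abcb1a was not tested where a filter asked for 1 CPM in 3 libraries.

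Of the counts of the P-glycoprotein pair, Abcb1a made up 2.56% of the pair's counts in knockout-labelled docetaxel cells (exact 95% interval 1.97 to 3.26), 1.89% in knockout-labelled DMSO cells (1.32 to 2.62), 3.48% in wild-type docetaxel cells (2.84 to 4.21) and 1.67% in wild-type DMSO cells (1.11 to 2.41). Without wild-type DMSO library 1, the wild-type log2 changes of Abcb1a and Abcb1b were 1.53 and 0.53 (edgeR adjusted p = 0.0252 and 0.00363). Both genes also passed in wild-type cells without the pair of Gm23935-rich libraries. The sum of both genes does not depend on how shared reads were split between them, though it does on whether they were counted. It rose in wild-type cells, by a log2 change of 0.50 ± 0.10 (edgeR adjusted p = 0.00299). In knockout-labelled cells its log2 change was 0.20 ± 0.10 (edgeR adjusted p = 0.22). The genotype differences of the sum were 0.01 under DMSO and -0.30 after docetaxel, and its interaction was -0.30 (edgeR adjusted p = 0.968, 0.12 and 0.459). Abcb1b overlaps the antisense gene Gm5106, which had 1 to 7 counts per library, and the sources used here do not give the strand setting of the counting.

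**Figure D4:**
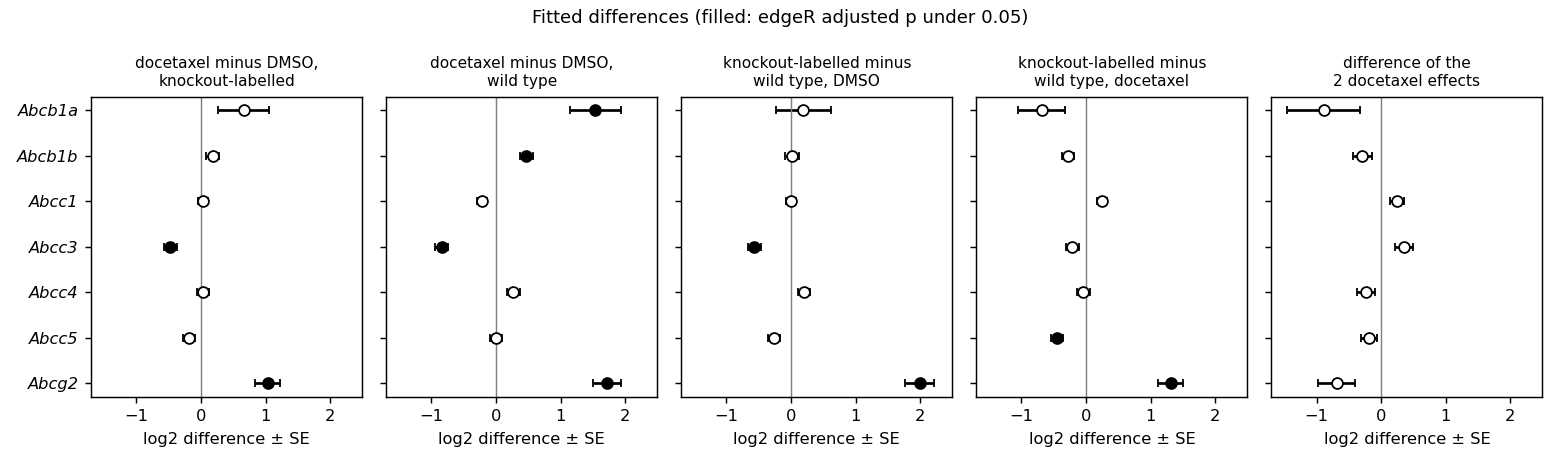
Fitted log2 differences ± SE (edgeR, 12 libraries) of the 7 pump genes in 5 comparisons; filled points passed at an adjusted p under 0.05. Abcg2 lies right of 0 and filled in the first 4 panels (1.03, 1.72, 1.99 and 1.31), Abcc3 lies left of 0 and filled in the first 3 (-0.48, -0.84 and -0.57), and no point is filled for the difference of the docetaxel effects.

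Of Abcc1, Abcc4 and Abcc5, Abcc5 alone passed a test, that of genotype after docetaxel. Abcc5 (ENSMUSG00000022822.16; chromosome 16, 20331303-20426394, minus strand) encodes MRP5, an exporter of cyclic nucleotides and nucleotide analogues. It had 23, 20.4 and 19.6 CPM in knockout-labelled docetaxel libraries, against 29.7, 26.7 and 29.9 CPM in wild-type docetaxel libraries. Under DMSO it had 23.4, 23.5 and 24.8 CPM in knockout-labelled libraries, against 28.5, 29 and 28.6 CPM in wild-type libraries. Every knockout-labelled library was below every wild-type library. The log2 difference passed after docetaxel, at -0.45 ± 0.09 (edgeR adjusted p = 0.00656), and missed the threshold under DMSO, at -0.26 ± 0.09 (edgeR adjusted p = 0.057). The difference under DMSO passed in 5 of 24 alternatives, among them DESeq2 (-0.27, adjusted p = 0.0305), the GC correction (-0.28, edgeR adjusted p = 0.0334) and the fit without knockout-labelled docetaxel library 1 (-0.26, edgeR adjusted p = 0.0398). Without the pair of Gm23935-rich libraries the difference after docetaxel was -0.40 and did not pass (edgeR adjusted p = 0.0539). Docetaxel gave log2 changes of -0.19 ± 0.09 in knockout-labelled cells (edgeR adjusted p = 0.173) and 0.00 ± 0.09 in wild-type cells (edgeR adjusted p = 0.985), where the sign turned with the scaling.

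Abcc1 (ENSMUSG00000023088.17; chromosome 16, 14361558-14475737, plus strand) encodes MRP1, an exporter of glutathione conjugates and leukotriene C4. It had 149 to 154 CPM in knockout-labelled docetaxel libraries and 141 to 158 CPM in knockout-labelled DMSO libraries, which overlapped. In wild-type cells it had 121 to 134 CPM after docetaxel and 137 to 157 CPM after DMSO, which did not overlap. The wild-type log2 change of -0.22 ± 0.08 lay at the threshold (edgeR adjusted p = 0.0501) and passed in 9 of 24 alternatives, among them without wild-type DMSO library 1 (-0.28, edgeR adjusted p = 0.0162) and without knockout-labelled docetaxel library 1 (-0.22, edgeR adjusted p = 0.0457). The change in knockout-labelled cells was 0.03 ± 0.08 (edgeR adjusted p = 0.845). Under DMSO the genotype difference was 0.00 ± 0.08 (edgeR adjusted p = 0.987). After docetaxel Abcc1 was at a log2 difference of 0.25 ± 0.08 in knockout-labelled over wild-type cells (edgeR adjusted p = 0.082), which passed in 3 of 24 alternatives, with DESeq2 (0.26, adjusted p = 0.0234), with the GC correction (0.26, edgeR adjusted p = 0.0427) and without wild-type DMSO library 1 (0.25, edgeR adjusted p = 0.0492). Its interaction was 0.25 ± 0.11 (edgeR adjusted p = 0.434, unadjusted p = 0.0417).

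Abcc4 (ENSMUSG00000032849.14; chromosome 14, 118482692-118706219, minus strand) encodes MRP4, an exporter of cyclic AMP and prostaglandins. It had 43.7 to 53.1 CPM in knockout-labelled docetaxel libraries and 43.7 to 48.9 CPM in knockout-labelled DMSO libraries. In wild-type cells it had 43.2 to 52.2 CPM after docetaxel and 38.5 to 42.5 CPM after DMSO, with a small gap between the groups. Its log2 change was 0.03 ± 0.10 in knockout-labelled cells (edgeR adjusted p = 0.869) and 0.27 ± 0.10 in wild-type cells (edgeR adjusted p = 0.0626). The wild-type change passed in 5 of 24 alternatives. Among them were the filter of 1 CPM in 3 libraries (0.28, edgeR adjusted p = 0.0465) and the replicate block (0.26, edgeR adjusted p = 0.0223). It also passed without knockout-labelled docetaxel library 1 (0.26, edgeR adjusted p = 0.0358) and without wild-type docetaxel library 2 (0.34, edgeR adjusted p = 0.0393). Neither genotype difference passed, at 0.20 ± 0.10 under DMSO and -0.04 ± 0.10 after docetaxel (edgeR adjusted p = 0.213 and 0.9).

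The libraries of docetaxel and DMSO did not overlap for 3 of the 7 genes in knockout-labelled cells, where 37.7% of all tested genes did not, and for 6 of 7 in wild-type cells, where 40.5% did not. Those of the genotypes did not overlap for 4 of 7 under DMSO, where 32.6% of all genes did not, and for 6 of 7 after docetaxel, where 25.1% did not. For the difference between the 2 docetaxel effects, 0 of the 7 genes passed by edgeR, DESeq2 or limma-voom, and 0.109% of all genes passed by edgeR. At an unadjusted p under 0.05, 3 of the 7 did (Abcc1, Abcc3 and Abcg2), where 11% of all genes did. A pump that passed in wild-type cells alone, such as Abcb1a or Abcb1b, was therefore not shown to respond differently there.

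Over the 12 libraries, the protein-coding genes whose log2 CPM followed each pump most closely were found among 9778 tested genes with a mean of at least 5 CPM. The libraries share the treatments and genotypes, so these correlations describe the groups' order as much as anything else. For Abcg2 these were Bcl2l15 (Pearson's r = 0.984), Serpine2 (0.967) and Dcun1d4 (0.965). Bcl2l15, a member of the BCL2 family, averaged 17.8 ± 1.6 CPM in knockout-labelled docetaxel cells, 8.26 ± 1.4 in knockout-labelled DMSO cells, 7.56 ± 0.525 in wild-type docetaxel cells and 1.82 ± 0.72 in wild-type DMSO cells. Serpine2, a secreted serine protease inhibitor, averaged 71.2 ± 8.14 CPM in knockout-labelled docetaxel cells, 33.4 ± 2.96 in knockout-labelled DMSO cells, 13.3 ± 1.48 in wild-type docetaxel cells and 3.2 ± 0.724 in wild-type DMSO cells. For Abcc3 they were Ctdsp2 (0.984), Zcchc24 (0.982) and Hadh (0.982), an enzyme of mitochondrial fatty acid oxidation. For Abcb1b they were Has2 (0.966), a hyaluronan synthase, Slc10a3 (0.964) and Slc35e1 (0.962). For Abcb1a they were Chid1 (0.931), Cd276 (0.911) and Rad51ap1 (0.900), and for Abcc5 Ints3, Impact and Adam19 (0.932, 0.932 and 0.931). Has2 averaged 50.9 ± 12.3 CPM in knockout-labelled docetaxel cells, 35.5 ± 4.35 in knockout-labelled DMSO cells, 76 ± 8.03 in wild-type docetaxel cells and 38.1 ± 13.6 in wild-type DMSO cells.

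The other ABC genes, most of which carry lipids, peptides or mitochondrial substrates or do not act as transporters, moved in both directions. Of 46 listed, 21 were tested. After docetaxel 4 rose and 4 fell in knockout-labelled cells (median log2 change -0.05), and 5 rose and 6 fell in wild-type cells (median 0.05), where 16.1% of all tested genes passed in knockout-labelled and 28.4% in wild-type cells. Under DMSO 2 were higher and 2 lower in knockout-labelled than in wild-type cells, and after docetaxel 0 were higher and 1 lower, with medians of 0.03 in both, where 15.8% of all genes passed under DMSO and 5.89% after docetaxel. Abcf2, a family member without membrane domains, averaged 128 ± 2.59 CPM after docetaxel and 87 ± 12.7 after DMSO in knockout-labelled cells, and 118 ± 2.96 and 58.1 ± 11.8 CPM in wild-type cells. Its log2 changes were 0.55 ± 0.13 and 1.03 ± 0.13 in knockout-labelled and wild-type cells (edgeR adjusted p = 0.00931 and 0.000104). Abce1, which recycles ribosomes, rose in both genotypes, by log2 changes of 0.50 ± 0.14 in knockout-labelled and 0.58 ± 0.14 in wild-type cells (edgeR adjusted p = 0.0316 and 0.00914).

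The genes that fell in both genotypes include Abcc10, whose human counterpart MRP7 can transport docetaxel. It averaged 6.3 ± 1.06 CPM after docetaxel and 9.26 ± 0.849 after DMSO in knockout-labelled cells, and 5.84 ± 0.749 and 8.04 ± 0.755 CPM in wild-type cells, with log2 changes of -0.56 ± 0.15 in knockout-labelled and -0.46 ± 0.15 in wild-type cells (edgeR adjusted p = 0.0227 and 0.0373). Abca3, a phospholipid transporter of lamellar bodies, had log2 changes of -0.29 ± 0.08 and -0.41 ± 0.08 in knockout-labelled and wild-type cells (edgeR adjusted p = 0.0268 and 0.00273). Abcd4, of the lysosomal cobalamin pathway, had -0.43 ± 0.12 in knockout-labelled and -0.62 ± 0.12 in wild-type cells (edgeR adjusted p = 0.0214 and 0.00163). The mitochondrial Abcb8 had -0.56 ± 0.08 in knockout-labelled and -0.32 ± 0.08 in wild-type cells (edgeR adjusted p = 0.000481 and 0.0124), and under DMSO it was higher in knockout-labelled cells, at a difference in log2 of 0.42 ± 0.08 (edgeR adjusted p = 0.00427). Abcb10, a pump of the mitochondrial inner membrane, rose by 0.27 ± 0.08 on the log2 scale in wild-type cells (edgeR adjusted p = 0.0162).

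Tap1, a subunit of the peptide transporter that loads MHC class I molecules, rose in knockout-labelled cells, with 37.6 ± 8.7 CPM after docetaxel and 21.6 ± 3.09 CPM after DMSO (log2 change 0.80 ± 0.20, edgeR adjusted p = 0.014). In wild-type cells its log2 change was 0.26 ± 0.19 (edgeR adjusted p = 0.353). Under DMSO it was lower in knockout-labelled cells, at a log2 difference of -1.07 ± 0.20 (edgeR adjusted p = 0.00243). Abcg1, a cholesterol exporter and relative of Abcg2, is named after its values were seen. It averaged 0.923 ± 0.123 CPM after docetaxel and 0.145 ± 0.0793 after DMSO in knockout-labelled cells, and 2.78 ± 0.0841 and 1.51 ± 0.429 CPM in wild-type cells. It rose in both, with log2 changes of 2.64 ± 0.38 in knockout-labelled and 0.88 ± 0.27 in wild-type cells (edgeR adjusted p = 0.000372 and 0.0238). Between genotypes it went opposite to Abcg2, lower in knockout-labelled cells by log2 differences of -3.34 ± 0.37 under DMSO and -1.58 ± 0.27 after docetaxel (edgeR adjusted p = 4.12e-05 and 0.00299). Its mean in knockout-labelled DMSO cells was below the filter level of 0.306 CPM. The log2 values of 2.64 and -3.34 therefore rest on few counts in that group.

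**Figure D5:**
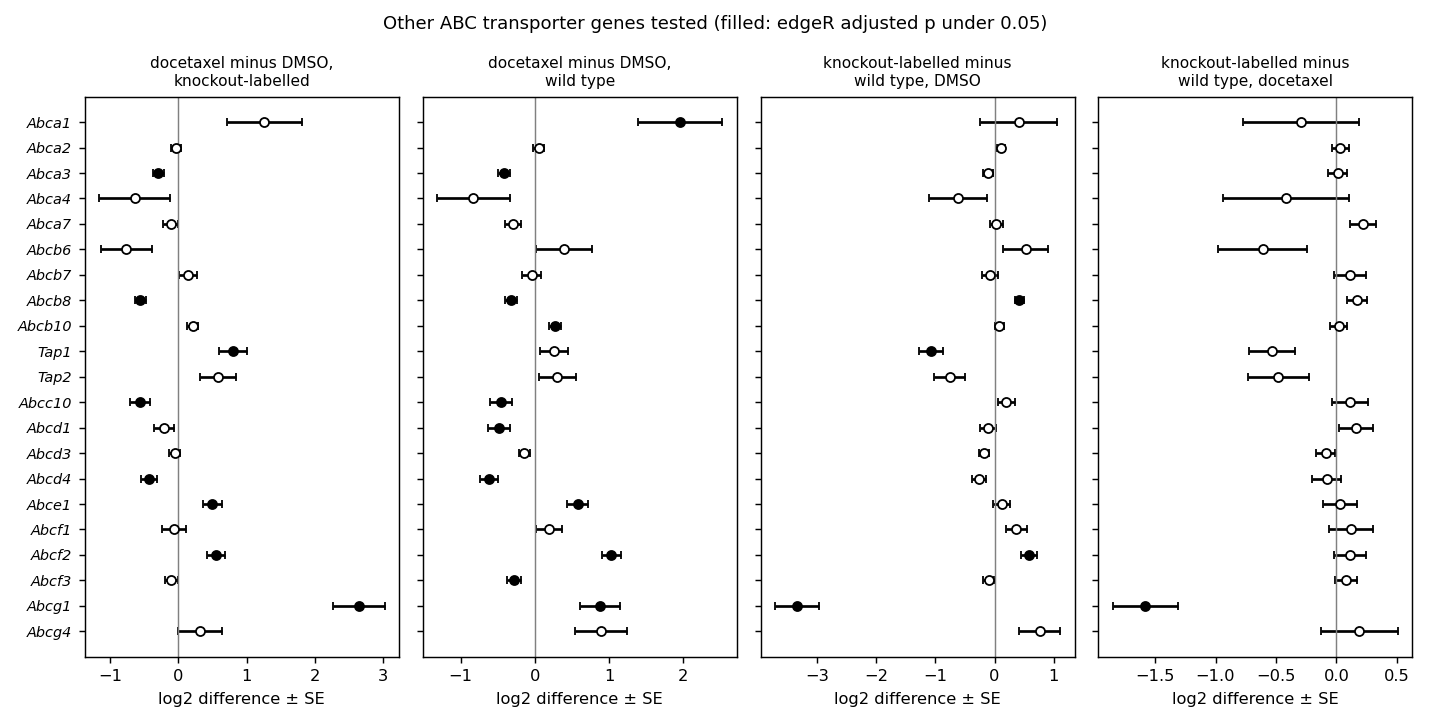
Fitted log2 differences ± SE (edgeR) of the other 21 tested ABC genes in the 4 pairwise comparisons of groups, each panel on its own scale; filled points passed at an adjusted p under 0.05. Points lie on both sides of 0 in every panel, and Abcg1 is farthest left in the genotype panels (-3.34 under DMSO and -1.58 after docetaxel). Abcg1 averaged 0.145 CPM in knockout-labelled DMSO cells, below the filter level of 0.306 CPM.

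Genes that supply glutathione or conjugate it to compounds, which makes substrates for the MRPs, were tested for 18 of 25 listed. After docetaxel 3 rose and 1 fell in knockout-labelled cells, and 3 rose and 2 fell in wild-type cells, with medians of 0.12 in knockout-labelled and -0.02 in wild-type cells. The shares over all tested genes were 16.1% in knockout-labelled and 28.4% in wild-type cells. Between genotypes, 3 were higher and 5 lower in knockout-labelled cells under DMSO, and 2 were higher and 2 lower after docetaxel, with medians of -0.09 and 0.09. Over all genes 15.8% passed under DMSO and 5.89% after docetaxel. Gstm2, a glutathione transferase with near relatives among which reads could be split, averaged 1.95 ± 0.211 CPM in knockout-labelled and 25.4 ± 3.32 CPM in wild-type cells under DMSO (log2 difference -3.70 ± 0.15, edgeR adjusted p = 2.65e-09). Mgst3, a membrane-bound transferase, fell after docetaxel in both genotypes, by log2 changes of -0.82 ± 0.15 in knockout-labelled and -1.24 ± 0.15 in wild-type cells (edgeR adjusted p = 0.00181 and 6.96e-05). Gstm5 was lower in knockout-labelled cells under DMSO, by -0.82 ± 0.17 (edgeR adjusted p = 0.00497).

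Regulators known to act on pump genes were tested for 11 of 14, and the xenobiotic receptor genes Nr1i2 and Nr1i3 were below the filter. After docetaxel 2 rose and 0 fell in knockout-labelled cells, and 0 rose and 3 fell in wild-type cells, beside 16.1% and 28.4% of all genes called in these cells. Between genotypes 0 were higher and 3 lower in knockout-labelled cells under DMSO, and 1 was higher and 0 lower after docetaxel, beside 15.8% of all genes under DMSO and 5.89% after docetaxel. The median log2 changes with docetaxel were -0.06 in knockout-labelled and -0.10 in wild-type cells, and the median genotype differences 0.05 under DMSO and 0.08 after docetaxel. Under DMSO, knockout-labelled cells were lower in Trp53, Foxo1 and Arnt, the partner of the aryl hydrocarbon receptor, by log2 differences of -0.58 ± 0.12, -0.54 ± 0.11 and -0.47 ± 0.08 (edgeR adjusted p = 0.00385, 0.00421 and 0.00189). Trp53 rose after docetaxel in knockout-labelled cells, by 0.41 ± 0.12 (edgeR adjusted p = 0.0282), and Arnt fell in wild-type cells, at a log2 change of -0.50 ± 0.08 (edgeR adjusted p = 0.000741).

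Of genes listed for taxane uptake and metabolism, 5 of 18 were tested. Whether the listed uptake carriers move docetaxel was not tested. The Cyp3a genes, relatives of the main taxane-oxidising enzyme of human liver, were below the filter. After docetaxel 2 rose and 0 fell in knockout-labelled cells, and 2 rose and 1 fell in wild-type cells (medians 0.13 and 0.27), and over all genes 16.1% passed in knockout-labelled and 28.4% in wild-type cells. Between genotypes, 2 were higher and 1 lower in knockout-labelled cells under DMSO, and 2 were higher and 2 lower after docetaxel (medians 0.53 and 0.45), against 15.8% of all genes under DMSO and 5.89% after docetaxel. Slco4a1, an organic anion uptake carrier, averaged 40.3 ± 3.57 CPM after docetaxel and 27.3 ± 4.08 after DMSO in knockout-labelled cells, and 65.8 ± 4.61 and 32.3 ± 3.24 CPM in wild-type cells (log2 changes 0.56 ± 0.12 in knockout-labelled and 1.03 ± 0.12 in wild-type cells, edgeR adjusted p = 0.00503 and 5.27e-05). Cyp1b1, an oxidising enzyme, fell in wild-type cells, at a log2 change of -0.63 ± 0.10 (edgeR adjusted p = 0.000719), and was lower in knockout-labelled cells under DMSO, by -0.98 ± 0.11 (edgeR adjusted p = 3.05e-05). Por, which passes electrons to such enzymes, was higher in knockout-labelled cells under DMSO, by 0.66 ± 0.10 (edgeR adjusted p = 0.000634).

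Of genes that anchor pumps at the membrane or move them through the cell, 10 of 11 were tested. After docetaxel 2 rose and 1 fell in knockout-labelled cells, and 1 rose and 1 fell in wild-type cells (medians 0.09 and 0.10). Of all tested genes, 16.1% passed in knockout-labelled and 28.4% in wild-type cells. Between genotypes, 0 were higher and 1 lower in knockout-labelled cells under DMSO, and none passed after docetaxel, with medians of 0.11 and 0.12, where 15.8% of all genes passed under DMSO and 5.89% after docetaxel. Cav1, the main coat protein of caveolae, averaged 53.3 ± 3.86 CPM after docetaxel and 85.4 ± 4.76 after DMSO in knockout-labelled cells, and 47.8 ± 1.8 and 115 ± 24.5 CPM in wild-type cells (log2 changes -0.68 ± 0.12 in knockout-labelled and -1.27 ± 0.12 in wild-type cells, edgeR adjusted p = 0.00183 and 1.4e-05). Rab5a, a small GTPase of early endosomes, rose in both, by 0.41 ± 0.10 in knockout-labelled and 0.29 ± 0.10 in wild-type cells (edgeR adjusted p = 0.0137 and 0.0442). Pim1, a kinase whose human counterpart phosphorylates ABCG2, rose in knockout-labelled cells, by 0.65 ± 0.17 (edgeR adjusted p = 0.0212).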

How the data were processed

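RNA depleted of ribosomal RNA was, per the labels' protocols, sequenced as paired reads of 150 bases. Per the submitters' processing notes, bcl2fastq, the aligner STAR 2.5.1a and the counter featureCounts 1.4.6-p5 (Subread) were used. The sources used here do not give the genome build, the annotation, the strand setting or how reads with several matches were treated. The authors deposited raw counts for each gene symbol in 12 libraries, 28.7 to 40.8 M after 351 repeated entries (0.907% of counts) were removed, which left 40406. Intervals on counts are exact and cover counting error only.

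Genes passing filterByExpr were tested in edgeR 4.0.16 (R 4.3.3), with TMM scaling and 1 quasi-likelihood model of 4 group means. P-values are two-sided, adjusted by the Benjamini-Hochberg method over all 15538 tested genes, and called at 0.05. Each SE is the absolute log2 difference divided by the square root of F. The common biological coefficient of variation was 13.2%. P-values measure the spread between these cultures only.

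The pumps and gene lists were chosen with earlier results of these data known. From each other list the text names up to 3 called genes with the largest differences and a mean of at least 5 CPM. Likeness used log2 CPM with a prior count of 2. Genes were placed with GENCODE M21, which matched every symbol. Alternatives were DESeq2 1.42.0, limma-voom (limma 3.58.1), other scalings and filters, the replicate number as a block, a GC correction (lowess span 0.3) and libraries left out. Exon-union lengths were added after seeing the data. Every value column was used.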

Additional observations from a re-analysis of the deposited data

How the results depend on the processing

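Over the 7 genes and 5 comparisons, 781 of 838 alternative values (the sum of Abcb1a and Abcb1b, another quantity, counted as an alternative of each) kept their direction and side of the threshold, 25 passed where the reported value had not, 1 no longer passed and 31 changed sign. Abcg2 passed under all alternatives run in each of the 4 pairwise comparisons, and Abcc3 in its 3. The values that changed sign had not passed the test. Abcc5 with docetaxel in wild-type cells (0.003) was -0.002 with DESeq2 and with RLE scaling, -0.012 with upper-quartile scaling, -0.008 with the GC correction, -0.01 with block and GC correction, and -0.027 to 0.053 with 1 library left out. For docetaxel in knockout-labelled cells, upper-quartile scaling gave -0.009 for Abcc1 and -0.006 for Abcc4, and leaving out 1 library gave -0.013 to 0.07 and -0.069 to 0.086. For genotype under DMSO, Abcb1b was -0.001 with the 6 libraries alone and -0.009 without library 3 of knockout-labelled docetaxel cells and library 2 of wild-type DMSO cells, each the richest of its group in Gm23935, Abcc1 was -0.004 with the 6 libraries, -0.012 with the GC correction and -0.013 with block and GC correction, and leaving out 1 library gave -0.043 to 0.066 for Abcb1b, -0.054 to 0.042 for Abcc1 and -0.2 to 0.5 for Abcb1a, against 0.19 with all libraries. For genotype after docetaxel, Abcc4 was 0.013 without that pair and -0.14 to 0.023 with 1 left out. In that comparison 4 pumps passed with the GC correction and 1 without that pair, against 2 reported. Over all genes 1318 passed with the GC correction and 565 without that pair, against 915 reported.

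Over all genes, leaving out 1 library gave 1311 to 2881 calls for docetaxel in knockout-labelled cells (2499 reported), 1264 to 3273 for genotype under DMSO (2454), 467 to 1083 for genotype after docetaxel (915) and 2 to 431 for the interaction (17). The 431 came without wild-type DMSO library 1, whose labels conflict. Without library 3 of knockout-labelled docetaxel cells and library 2 of wild-type DMSO cells, 1267, 565 and 4 were called for genotype under DMSO, genotype after docetaxel and the interaction. For the interaction, DESeq2 called 165, limma-voom 8, no filter on low counts 421, the replicate block 48, the GC correction 39 and both 120, and both gave 1477 for genotype after docetaxel. The cause was not tested. Same-numbered libraries of different groups did not consistently deviate together (correlations -0.64 to 0.677, median 0.0682, 8 of 18 over 0.1). Differently numbered ones had a similar range (-0.669 to 0.614, median -0.0437), so the numbers were not taken to pair libraries. With the replicate block, 5 pumps passed for docetaxel in wild-type cells, against 4 reported, with Abcc4 added (0.26, edgeR adjusted p = 0.0223). Over all genes 4510 passed there with the block, against 4406 reported. Counts limit Abcb1a, whose adjusted p for docetaxel in wild-type cells reached 0.0482 with 1 library left out.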
